A study of Rattus norvegicus with 8 samples.

Results

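The circadian clock genes described here were 9 genes chosen by identifier: Arntl (ENSRNOG00000014448), Clock (ENSRNOG00000002175), Per1 (ENSRNOG00000007387), Per2 (ENSRNOG00000020254), Per3 (ENSRNOG00000018413), Cry1 (ENSRNOG00000006622), Nr1d1 (ENSRNOG00000009329), Nr1d2 (ENSRNOG00000046912) and Dbp (ENSRNOG00000021027). All 9 were found among the 32285 genes of the count table, and all 9 passed the filter on low counts, which left 16313 genes for testing. The tissue was the sinoatrial node, where the heartbeat is started, taken from rats of the strain Dahl/Salt Sensitive Rat (SS/JrHsdMcwiCrl), in which dietary salt raises blood pressure. The Control group (4 libraries) ate a diet with 0.4% NaCl and the HFpEF group (4 libraries) a diet with 8% NaCl, each for 11 weeks. HFpEF stands for heart failure with preserved ejection fraction, and the high-salt diet is the only treatment that set the groups apart, so salt intake and disease cannot be told apart. The labels name no age, sex or hour of tissue collection. They also do not state that every library is a separate rat, and the tests below therefore speak only of variation among libraries, which may be technical.

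The clock is a feedback loop of transcription that runs in nearly every cell with a period of about a day, and the heart's own clock is known to shape daily rhythm in ion channel expression and heart rate. ARNTL (also called BMAL1) and CLOCK form the activator of the loop, here called the positive limb. The activator binds E-boxes and drives Per1, Per2, Per3, Cry1, Nr1d1, Nr1d2 and Dbp; PER and CRY proteins repress the activator, and the REV-ERB receptors encoded by Nr1d1 and Nr1d2 repress Arntl. Dbp encodes an output factor that binds D-boxes; it is counted with the Per, Cry and Nr1d genes in the negative limb, since its transcript is driven by the same activator. In rodent tissues Arntl transcript peaks when that of Dbp is low. The limbs were therefore compared library by library, as a check on collection time.

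Promoter sequences from RefSeq (build GRCr8, 250 bases before to 50 after the annotated start) are shown for 3 members. They are shown because the loop is wired through short motifs in these regions, and the 3 were picked from members with a motif match. RefSeq promoters matched 8 of the 9 members, in 10 windows, and not Cry1. Capitals mark the motif AGGTCA, a core motif of the REV-ERB and ROR receptors, in Arntl, where it starts 15 bases before the annotated start. In Per2 they mark TTATGTAA, a D-box, and CACGTT, a variant E-box. In Nr1d1, which has a pair of windows, the second is shown with the E-box CACGTG in capitals.
Arntl, chr1:176766078-176766377, plus strand: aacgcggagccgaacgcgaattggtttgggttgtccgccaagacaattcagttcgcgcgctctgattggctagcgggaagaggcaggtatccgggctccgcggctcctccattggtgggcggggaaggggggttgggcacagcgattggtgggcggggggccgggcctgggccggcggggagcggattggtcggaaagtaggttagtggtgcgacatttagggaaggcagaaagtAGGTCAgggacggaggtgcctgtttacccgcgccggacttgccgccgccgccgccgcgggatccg
Per2, chr9:99496944-99497243, minus strand: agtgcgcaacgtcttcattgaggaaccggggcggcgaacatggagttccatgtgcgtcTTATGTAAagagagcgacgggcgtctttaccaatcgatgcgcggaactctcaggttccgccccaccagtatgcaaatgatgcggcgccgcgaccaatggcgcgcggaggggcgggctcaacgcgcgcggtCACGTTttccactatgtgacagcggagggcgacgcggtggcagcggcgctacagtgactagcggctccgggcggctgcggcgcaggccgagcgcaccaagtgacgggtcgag
Nr1d1, chr10:84229405-84229704, minus strand: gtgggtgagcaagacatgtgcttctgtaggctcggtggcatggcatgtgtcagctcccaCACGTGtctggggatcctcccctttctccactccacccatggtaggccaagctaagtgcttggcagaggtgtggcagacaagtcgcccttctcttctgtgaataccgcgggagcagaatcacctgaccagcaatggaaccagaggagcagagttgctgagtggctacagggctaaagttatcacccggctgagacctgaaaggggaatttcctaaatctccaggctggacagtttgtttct
Motifs were searched on both strands. CACGTG was found in 6.42% of all 33469 RefSeq promoter windows, CACGTT in 4.83%, TTATGTAA in 0.893% and AGGTCA in 16.2%. Among the members, CACGTG was found in 1 (Nr1d1), CACGTT in 2 (Per2 and the first Nr1d1 window), TTATGTAA in 1 (Per2) and AGGTCA in 2 (Arntl and Nr1d2). The second D-box form searched, TTACGTAA, and the cyclic AMP element TGACGTCA were found in 0 members, against 0.12% and 1.83% of all windows. TGACG, contained in the latter and left in lower case here, was found in 3 members (Per2, Per3 and Nr1d2) and in 21.2% of windows. None of the searched motifs was found in the windows of Clock, Per1 and Dbp. These matches and absences describe letters in a short window and say nothing of binding.

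Total expected counts ran from 31774820 to 38889395 per library. Levels are given as normalised CPM, counts scaled to a common (TMM-adjusted) library total, and they are not corrected for gene length, so they are compared between libraries and not between genes. A gene was called where the edgeR quasi-likelihood test gave a Benjamini-Hochberg adjusted p under 0.05 over all 16313 tested genes. In bulk tissue, fewer cells of a type and less RNA per cell cannot be told apart. Identifiers of other genes were not paired with symbols, so node markers, markers of other cell types and further clock genes (such as Cry2, Npas2, Rora and Nfil3) were not analysed here.

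The clock genes spread widely within both groups, and 0 of the 9 separated Control from HFpEF. Control replicate 4 and HFpEF replicate 1 had high Arntl and Clock with low Per2, Per3, Nr1d2 and Dbp. Control replicates 1 to 3 showed the reverse, and HFpEF replicates 2 to 4 lay between. Of the 9 genes, 0 were called between HFpEF and Control, where 1.94% of all tested genes (316) were.

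**Figure D1:**
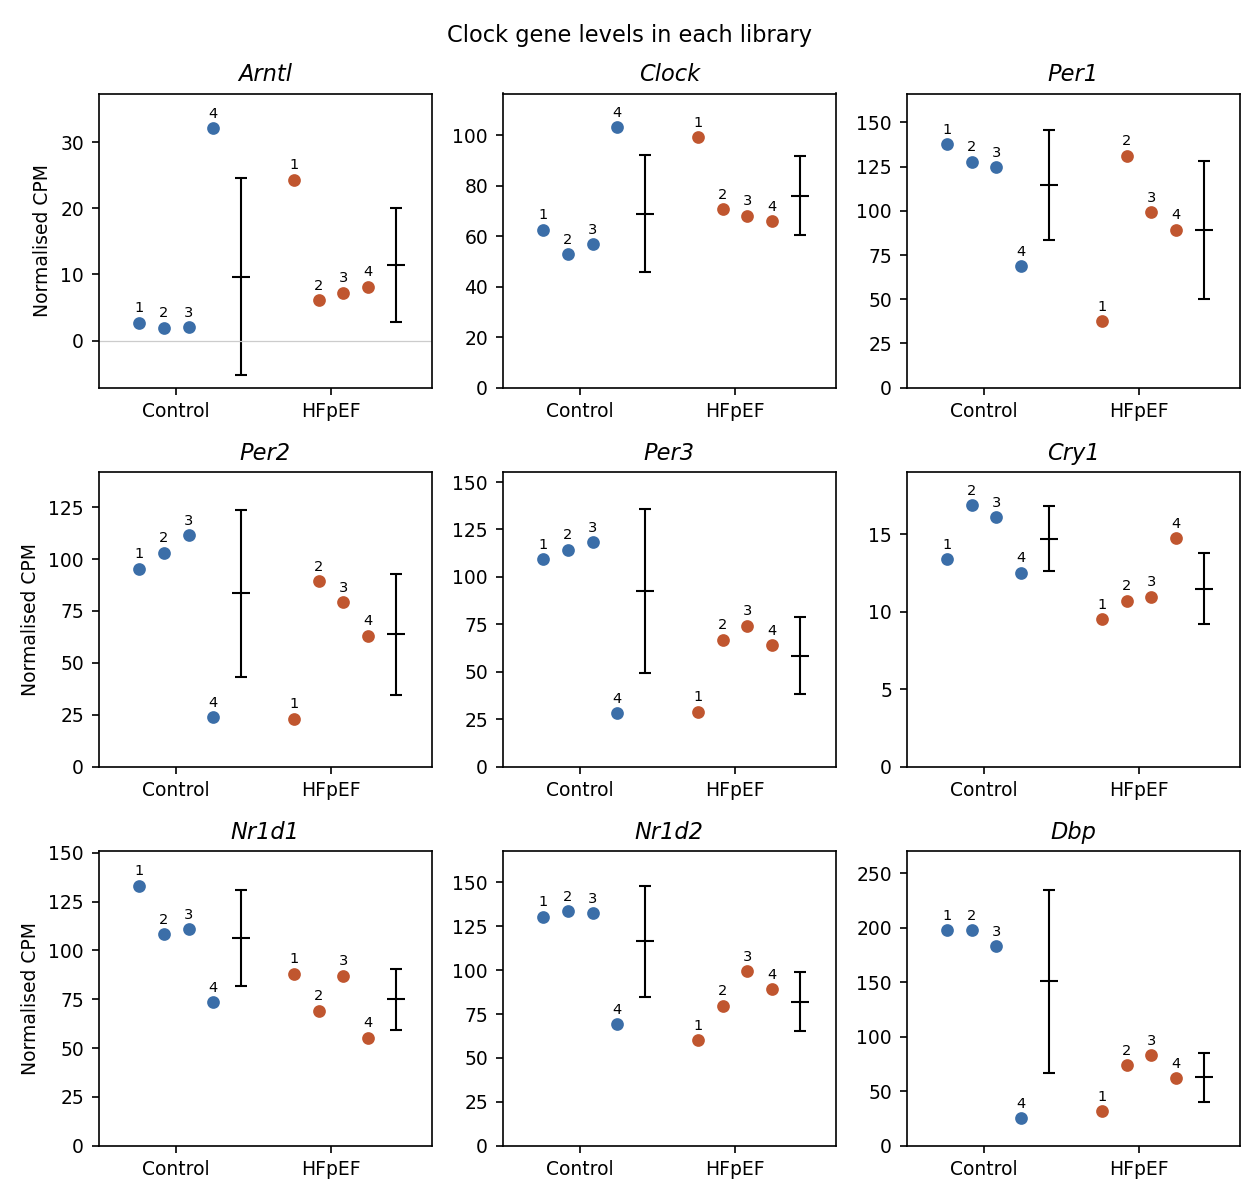
Normalised CPM (vertical axis, linear, counts scaled to a common library total) of each clock gene in the 4 Control (blue) and 4 HFpEF (orange) libraries; numbers are replicate numbers and black bars the group mean ± 1 SD. Control replicate 4 is the highest Control library for Arntl and Clock and the lowest for the other 7 genes; for Arntl the Control SD exceeds the mean, so the bar runs below 0.

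Arntl, the activator subunit with the strongest daily rhythm in most tissues, stood at 2.73, 1.96 and 2.02 CPM in Control replicates 1 to 3 and at 32.1 CPM in Control replicate 4. In HFpEF replicates 1 to 4 it stood at 24.3, 6.13, 7.26 and 8.17 CPM. Control replicate 4 was thus the highest of all 8 libraries, 14.3 times the mean of the other Control libraries, and HFpEF replicate 1 came next, 3.38 times the mean of the other HFpEF libraries. The highest library held 16.4 times the level of the lowest. The groups overlapped, with a Control mean of 9.69 ± 14.9 CPM and an HFpEF mean of 11.5 ± 8.59 CPM (SD, n = 4 each) and medians of 2.38 and 7.72 CPM. The log2 fold change, HFpEF minus Control, was 0.25 ± 0.94 (± standard error; edgeR adjusted p = 0.914). It depended on the method: limma-voom, which averages on the log scale, gave 1.22 (adjusted p = 0.458), and the replicate block in edgeR gave 1.24 (adjusted p = 0.542). DESeq2 returned no p-value for Arntl. Without Control replicate 4 it was 2.36 (edgeR adjusted p = 0.0780) and without HFpEF replicate 1 it was -0.43 (edgeR adjusted p = 0.849). Without Control replicate 1, 2 or 3 it was -0.06, -0.09 and -0.09 in turn (edgeR adjusted p = 0.985, 0.976 and 0.977), so the direction between groups turned with single libraries.

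Clock, the partner of Arntl, whose transcript cycles weakly in most tissues, had the same order of extremes over a narrower range. It stood at 62.5, 53.0, 56.9 and 103 CPM in Control replicates 1 to 4 and at 99.3, 70.8, 68.2 and 66.1 CPM in HFpEF replicates 1 to 4. Control replicate 4 and HFpEF replicate 1 were again the highest libraries, and the highest held 1.95 times the lowest. The log2 fold change was 0.14 ± 0.22 (± standard error; edgeR adjusted p = 0.771). Without Control replicate 4 it was 0.40, and without HFpEF replicate 1 it was -0.01.

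The Period genes, which encode repressors of the activator, were low where Arntl was high. Per1, which also responds acutely to stimuli such as glucocorticoids, stood at 138, 128, 125 and 68.7 CPM in Control replicates 1 to 4 and at 37.4, 131, 99.1 and 89.3 CPM in HFpEF replicates 1 to 4. HFpEF replicate 1 and Control replicate 4 were the lowest libraries, while HFpEF replicate 2 lay within the range of Control replicates 1 to 3. Per2 stood at 95.3, 103, 112 and 23.7 CPM in Control and at 23.1, 89.2, 79.3 and 63.1 CPM in HFpEF, in replicate order. Control replicate 4 was 4.36 times below the mean of the other Control libraries and nearly level with HFpEF replicate 1. Per3 stood at 109, 114, 118 and 28.1 CPM in Control and at 29.0, 66.9, 74.2 and 64.0 CPM in HFpEF. Its HFpEF replicates 2 to 4 lay under all of Control replicates 1 to 3 and above the other pair, so the libraries formed 3 steps. The log2 fold changes were -0.36 ± 0.35 for Per1, -0.39 ± 0.50 for Per2 and -0.66 ± 0.44 for Per3 (± standard error; edgeR adjusted p = 0.608, 0.719 and 0.442). Without Control replicate 4 they were -0.54, -0.70 and -0.96 and without HFpEF replicate 1 -0.11, -0.11 and -0.44, none of them called.

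Cry1, the partner of the PER repressors, whose transcript peaks later than those of the Per genes, varied least of the members relative to its level. It stood at 13.4, 16.9, 16.1 and 12.5 CPM in Control replicates 1 to 4 and at 9.51, 10.7, 11.0 and 14.8 CPM in HFpEF replicates 1 to 4. HFpEF replicate 4 lay within the Control range and the other HFpEF libraries under it, so the groups overlapped through 1 library. Control had a mean of 14.7 ± 2.1 CPM and HFpEF one of 11.5 ± 2.27 CPM (SD, n = 4 each). The log2 fold change was -0.36 ± 0.15 (± standard error; edgeR adjusted p = 0.233). All 8 expected counts of Cry1 were non-whole, which means that reads were shared out with another gene, so its values are less certain. The RefSeq table shows an overlap of Cry1 with a protein-coding gene model, and of Clock and Per2 with long noncoding RNA genes, although the counts of the last pair were whole.

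The REV-ERB genes, which encode the repressors of Arntl, were lower in the HFpEF libraries than in Control replicates 1 to 3. Nr1d1 stood at 133, 108, 111 and 73.5 CPM in Control replicates 1 to 4 and at 88.1, 69.2, 87.0 and 55.4 CPM in HFpEF replicates 1 to 4. It did not have its lowest levels in the pair with high Arntl: the lowest were HFpEF replicates 4 and 2. Its expected counts were non-whole in all 8 libraries and the RefSeq table shows an overlap with Thra, the thyroid hormone receptor alpha gene, so reads of both may be mixed. Nr1d2 stood at 130, 134, 133 and 69.1 CPM in Control and at 60.0, 79.7, 99.5 and 89.2 CPM in HFpEF, in replicate order. Control replicates 1 to 3 agreed closely and Control replicate 4 lay 1.91 times under their mean, inside the HFpEF range. The log2 fold changes were -0.51 ± 0.20 for Nr1d1 and -0.50 ± 0.22 for Nr1d2 (± standard error; edgeR adjusted p = 0.205 and 0.259).

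Dbp, the output factor, had the widest range after Arntl and, by edgeR with all 8 libraries, the largest fitted difference between groups of the 9; by limma-voom, with the replicate block and without Control replicate 4, that of Arntl was larger. It stood at 198, 198 and 183 CPM in Control replicates 1 to 3 and at 25.4 CPM in Control replicate 4, 7.6 times under their mean. In HFpEF replicates 1 to 4 it stood at 31.6, 73.9, 82.9 and 61.7 CPM. Control replicate 4 was the lowest library of all, HFpEF replicate 1 was next, and the other HFpEF libraries were all under Control replicates 1 to 3. The mean was 151 ± 84.0 CPM for the Control and 62.5 ± 22.4 CPM for the HFpEF libraries (SD, n = 4 each). The fitted level was 2.41-fold lower in HFpEF. This log2 fold change of -1.27 ± 0.56 (± standard error) did not pass the threshold (edgeR adjusted p = 0.252). Without Control replicate 4 Dbp was called lower in HFpEF, at -1.62 ± 0.28 on the log2 scale (± standard error, edgeR adjusted p = 0.0446). Over 16 alternatives the adjusted p ran from 0.0446 to 0.466 (both by edgeR). Control replicate 4 had the lowest Dbp level, so leaving it out raises the Control mean and narrows the Control SD by construction. The call is therefore no separate support for a difference.

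Between the groups, the 7 negative-limb genes all had fitted log2 fold changes below 0, with a median of -0.50, and the 2 positive-limb genes had values above 0. Over all 16313 tested genes the median was -0.00 and 50.9% lay below 0. The 7 genes share a driver and the same libraries, so their common direction is not 7 separate results. Of the 9 genes, 3 (Cry1, Nr1d1 and Dbp) had an unadjusted p under 0.05 by edgeR, a level that 19.6% of all tested genes reached. DESeq2 called 7.03% of all its tested genes and limma-voom 1.37%. Both also called 0 of the 9, where DESeq2 gave no p-value for Arntl. An unadjusted p under 0.05 was reached by 4 of the others by DESeq2 and by 2 of the 9 by limma-voom. Of all genes, 18.9% and 19% reached that level by these methods. The groups overlapped in all 9 genes, while 12.5% of all tested genes showed no overlap. Without Control replicate 4, the groups did not overlap in 7 of the 9 (all but Per1 and Cry1), where 19.4% of all tested genes did not, and 1 of the 9 was called, where 0.951% of genes were. Leaving out each library in turn was planned, but Control replicate 4 is singled out here for its levels of these same genes.

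**Figure D2:**
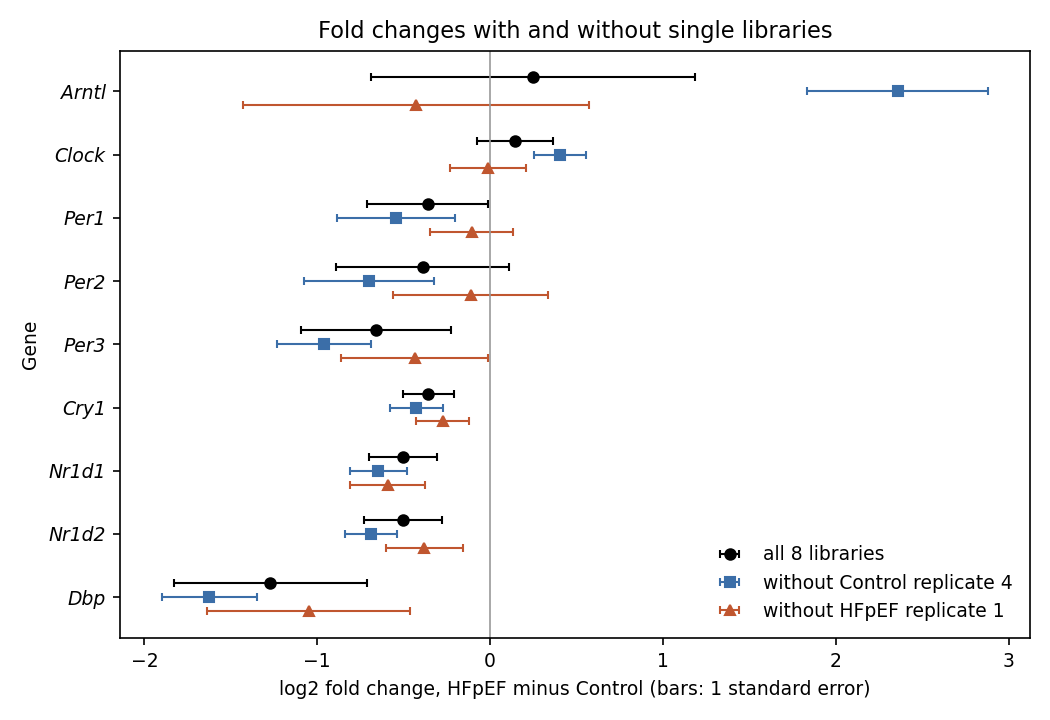
Log2 fold change, HFpEF minus Control (horizontal axis), of each clock gene by edgeR, with bars of 1 standard error, for all 8 libraries (black circles), without Control replicate 4 (blue squares) and without HFpEF replicate 1 (orange triangles). Arntl runs from -0.43 to 2.36 over these 3 fits, and Dbp from -1.62 to -1.05.

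The limbs lay on opposite sides of their means in 6 of the 8 libraries; in HFpEF replicates 2 and 3 both limbs lay at most 0.055 from their means, on the same side. The limb difference is the mean log2 CPM of Arntl and Clock minus that of the 7 negative-limb genes, after each gene was centred on its mean over the 8 libraries. It was 2.22 in Control replicate 4 and 2.12 in HFpEF replicate 1. In HFpEF replicates 2, 3 and 4 it was -0.03, 0.00 and 0.28, and in Control replicates 1, 2 and 3 it was -1.30, -1.68 and -1.60. The libraries thus fell into 3 levels: the top level held 1 library of each group, the middle level held HFpEF libraries only and the bottom level Control libraries only. On the scale of single genes, log2 CPM of Arntl minus that of Dbp was 0.34 in Control replicate 4 and -0.38 in HFpEF replicate 1, between -3.58 and -2.91 in HFpEF replicates 2 to 4, and between -6.61 and -6.15 in Control replicates 1 to 3.

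The group means of the limb difference were -0.59 ± 1.88 for Control and 0.59 ± 1.03 for HFpEF (SD, n = 4 each). Their difference of 1.18 was smaller than the pooled within-group SD of 1.51. It was 2.12 without Control replicate 4 and 0.67 without HFpEF replicate 1. No p is given for a score over chosen genes. Both limbs took part: in Control replicate 4 the positive limb lay 1.42 above and the negative limb -0.80 from its mean, and in HFpEF replicate 1 the values were 1.19 and -0.92. The hour of collection was not among the labels, and its part in these differences was not tested.

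**Figure D3:**
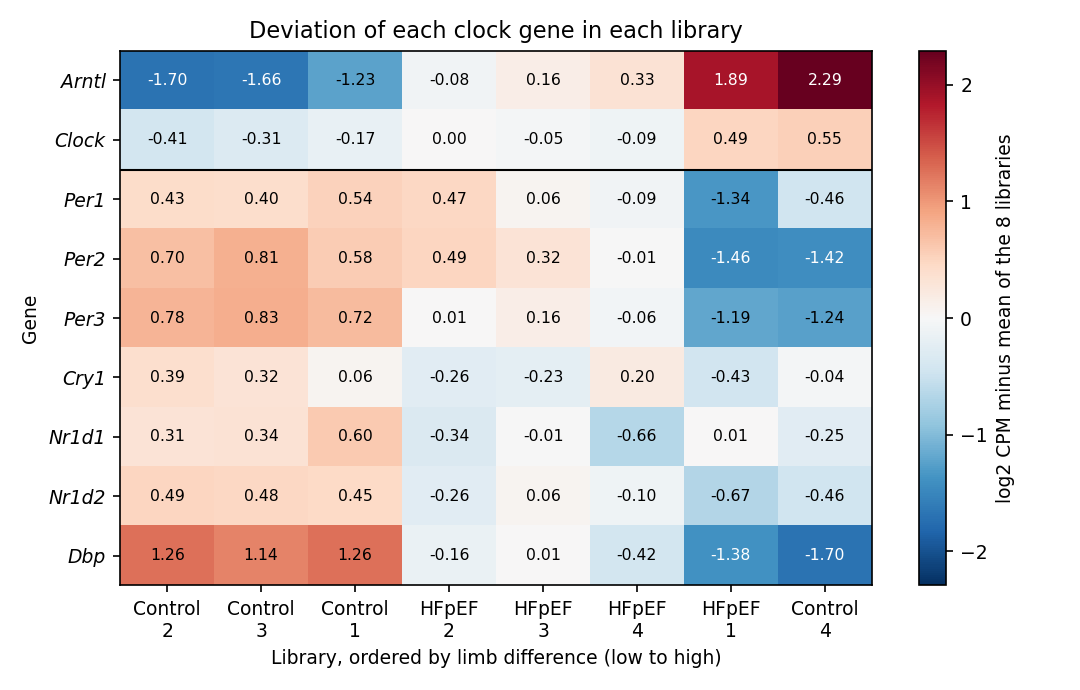
Log2 CPM of each clock gene minus its mean over the 8 libraries (colour and printed value; red above, blue below the mean), with libraries ordered from low to high limb difference and the positive limb above the black line. Arntl and Clock run from blue to red from left to right while Per2, Per3, Nr1d2 and Dbp run from red to blue, with HFpEF replicate 1 and Control replicate 4 at the right end.

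Across libraries, Dbp and Per3 ran most nearly opposite to Arntl. Likeness was measured as Pearson r of log2 CPM over the 8 libraries, after the mean of each group was subtracted, and every one of the other 16312 tested genes was ranked by it. Dbp had the third lowest r (-0.987) and Per3 the fourth lowest (-0.986). Per2 was 25th from the bottom (-0.964) and Nr1d2 46th (-0.950), while Clock was 6th from the top (0.973). Per1 was 451st from the bottom (-0.810), and Cry1 (-0.601) and Nr1d1 (-0.469) were 1712th and 2873rd. Of the 8 members, 4 were thus among the 100 genes most opposite to Arntl and 1 among the 100 most like it. In these group-centred values Control replicate 4 and HFpEF replicate 1 weighed most. Without replicate 4 the Control SD of log2 CPM of Arntl went from 1.92 to 0.26. Without replicate 1 the HFpEF SD went from 0.90 to 0.21. The ranks therefore rest largely on 1 library of each group, and the remaining libraries of a group are too few to test a relation.

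Without the group means subtracted, r was -0.988 for Dbp, -0.986 for Per3, -0.944 for Nr1d2, -0.943 for Per2, -0.838 for Per1, -0.680 for Cry1, -0.589 for Nr1d1 and 0.966 for Clock. Spearman's rho was -0.905 for Dbp, -0.952 for Per3 and Per2, -0.905 for Nr1d2, -0.786 for Per1, -0.643 for Cry1, -0.595 for Nr1d1 and 0.905 for Clock. In the exact two-sided permutation test over pairings of libraries, adjusted over all 16312 genes, 0 of the 8 relations passed 0.05 by r (0% of all genes did; lowest adjusted p over all genes 0.221) or by rho. At an unadjusted exact permutation p under 0.05 there were 6 of the 8 by r (all but Cry1 and Nr1d1) and 6 by rho, where 6.97% of all genes reached that level by r and 5.96% by rho. For Dbp the exact permutation p was 0.000298 by r and 0.00456 by rho, and for Clock 0.000422 and 0.00456. Pairings were permuted over all 8 libraries and not within groups, so the step between groups enters these p-values. Without Control replicate 4 and HFpEF replicate 1, the libraries farthest from the median of Arntl, r over the remaining 6 was -0.967 for Dbp, -0.975 for Per3, -0.890 for Per2, -0.907 for Nr1d2, -0.837 for Nr1d1, -0.717 for Per1, -0.685 for Cry1 and 0.888 for Clock. All 8 kept their sign. The unadjusted exact permutation p over these 6 libraries was 0.025 for Clock, 0.00417 for Per2, 0.0264 for Per3 and 0.0361 for Dbp. By the same test it was 0.0597 for Nr1d1, 0.0653 for Nr1d2, 0.131 for Per1 and 0.151 for Cry1. These 6 libraries are 3 of each group, so the step between groups enters the values.

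The spread within groups was wide for genes of this level. The pooled within-group SD of log2 CPM was 1.5 for Arntl, 1.12 for Dbp, 0.98 for Per2, 0.84 for Per3 and 0.64 for Per1. It was 0.40 for Nr1d2, 0.36 for Clock, 0.34 for Nr1d1 and 0.24 for Cry1, against a median of 0.17 over all tested genes. Set beside genes within 0.5 log2 CPM of the same mean level, Dbp lay at percentile 99.8, Arntl at 99.6, Per2 at 99.5, Per3 at 99.1, Per1 at 98.8 and Nr1d2 at 96.2. Clock lay at 94.9, Nr1d1 at 94.2 and Cry1 at 83.0. Thus 6 of the 9 reached percentile 95, as did 4.95% of all tested genes.

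**Figure D4:**
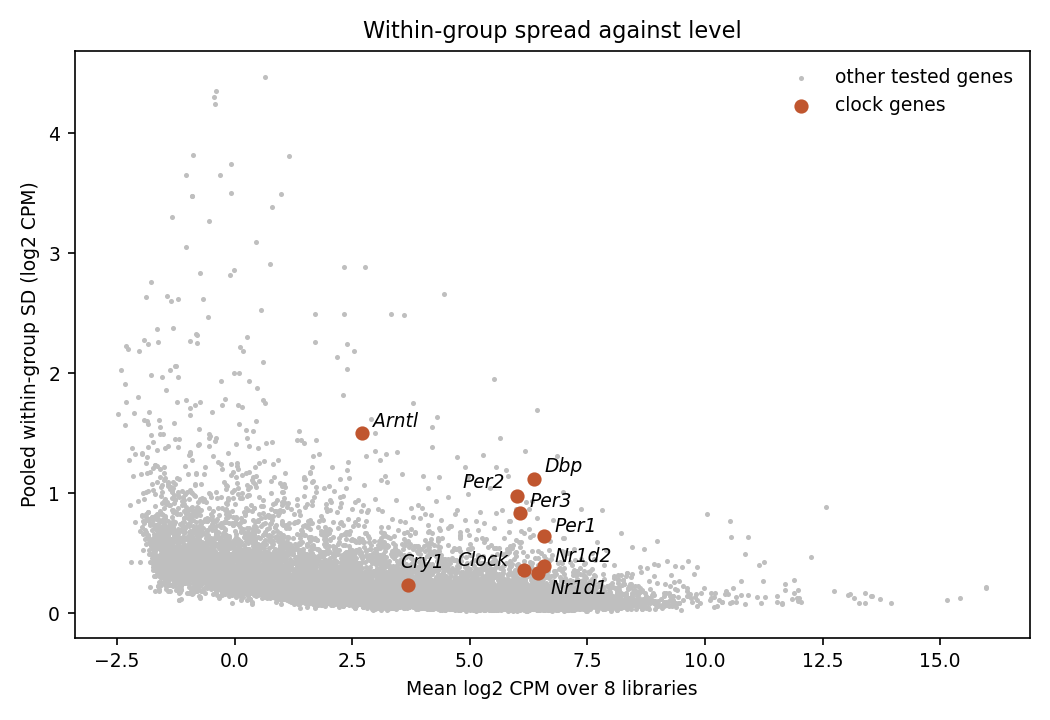
Pooled within-group SD of log2 CPM (vertical axis) against mean log2 CPM over the 8 libraries (horizontal axis) for the clock genes (orange) and all tested genes (grey). Arntl, Dbp, Per2, Per3 and Per1 lie along the upper edge of genes of their level, with SDs of 0.64 to 1.5, and Cry1 lies within the bulk.

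The spread came from both groups. In Control, without replicate 4, the SD of log2 CPM went from 1.92 to 0.26 for Arntl, from 1.46 to 0.07 for Dbp, from 1.06 to 0.11 for Per2, from 1.01 to 0.06 for Per3 and from 0.47 to 0.02 for Nr1d2. Percentiles were then taken among genes within 0.5 log2 CPM of the same mean level. That mean was over all remaining libraries of both groups, so it can differ from the level in the group described. On this measure the SD over Control replicates 1 to 3 put Nr1d2 at percentile 8.76, Per3 at 49.1, Dbp at 58.4 and Per1 at 65.0. Per2 (84.3), Clock (85.6), Arntl (86.2), Cry1 (86.7) and Nr1d1 (92.9) stayed higher. In HFpEF, without replicate 1, the SD went from 0.90 to 0.21 for Arntl, from 0.89 to 0.25 for Per2, from 0.78 to 0.29 for Per1, from 0.62 to 0.11 for Per3 and from 0.62 to 0.21 for Dbp. It moved little for Nr1d1 (0.32 and 0.33) and Cry1 (0.27 and 0.26). HFpEF replicates 2 to 4 put Clock at percentile 15.1, Per3 at 46.9, Arntl at 53.2 and Nr1d2 at 65.3. Dbp (79.9), Cry1 (80.5), Per2 (85.7), Per1 (88.0) and Nr1d1 (91.2) stayed higher. The library left out of each group was singled out for its levels of these same genes. A fall in SD and percentile was thus largely set in advance for most of them, and it is no test of the remaining libraries.

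The libraries at the top level did not have unusual totals, with 36504423 counts in Control replicate 4 and 37180059 in HFpEF replicate 1. Over all tested genes on the log2 scale, the distance of Control replicate 4 to the mean of its group was 42.3, where the remaining Control libraries had 33.8 to 36.8. For HFpEF replicate 1 the distance was 39.4, the smallest in HFpEF, where the remaining libraries had 43.1 to 48.0. By the gap to the nearest library over the range of the group, with Dixon's 95% critical value, Control replicate 4 stood apart in 4 of the 9 genes (Arntl, Per3, Nr1d2 and Dbp) and in 2.77% of all tested genes. HFpEF replicate 1 stood apart in 2 of the 9 (Arntl and Clock) and in 1.07% of all tested genes. With the limb difference as a covariate in edgeR, added after the values were seen, 204 genes were called, 142 of them among the 316 called without it. This fit has an added term, and the limb difference itself had group means of -0.59 for Control and 0.59 for HFpEF. The reason for the change in calls was not tested. Without both libraries, also added after the values were seen, 197 genes were called, 108 of them among the 316, from 2 fewer libraries. The members' own calls in these 2 fits are not given, since their levels defined both.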

How the data were processed

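Total RNA, depleted of ribosomal RNA, was sequenced from 8 sinoatrial node libraries (4 Control, 4 HFpEF; groups and replicate numbers from the library titles). The authors deposited 1 table of expected counts per Ensembl gene, not normalized; RSEM divides ambiguous reads among genes, which gives fractions. Per the submitters' processing notes the tools included RSEM 1.2.15 and Bowtie2 2.1.0, with build rn6. Annotation release and strand setting: not given in the sources used here, so overlapping genes may share reads.

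Expected counts were rounded, filtered by filterByExpr, scaled by TMM and tested by two-sided edgeR quasi-likelihood tests (edgeR 4.0.16, R 4.3.3), adjusted by Benjamini-Hochberg over 16313 genes. Standard errors came from the F statistic. Log2 CPM used a prior count of 2. Correlations used all 40320 pairings of 8 libraries (numpy 2.4.6, scipy 1.17.1). Counts were called whole within 0.005. Both procedures were run on simulated data with planted changes, as a check of the code. The simulated data were not built with a library set apart from its group, so they do not cover that case. Chi-square per degree of freedom between same-group libraries was 18.4 to 83.0, above sampling noise. Each library was counted separately, although these values do not show that the libraries came from separate rats.

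The members and lists were chosen with earlier results of these data known. All 9 members are named; symbols were given with the selection and not by the table. The fits were repeated with limma-voom (limma 3.58.1), DESeq2 1.42.0, upper quartile or RLE scaling, a filter at a mean of 1 CPM or none, robust = TRUE, a replicate block, and each library left out. For the limb difference, spread and correlations they were other scalings, a prior count of 0.5 and other limb members.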

Additional observations from a re-analysis of the deposited data

Results flagged for a closer look

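The gap of the highest or lowest library to the nearest other, divided by the range of its group, was compared with Dixon's 95% critical value in 20 sets of 4 values, and 8 values stood apart. Chance gives about 1 in 20 sets. The genes vary together, so these are not separate cases. In Control replicate 4, Arntl (32.1 CPM) and the limb difference (2.22) stood apart as high, and Per3 (28.1 CPM), Nr1d2 (69.1 CPM) and Dbp (25.4 CPM) as low. In HFpEF replicate 1, Arntl (24.3 CPM), Clock (99.3 CPM) and the limb difference (2.12) stood apart as high. Control replicate 4 stood apart in 4 of the 9 genes and in 2.77% of all tested genes, against 0.852% to 1.19% for the other Control libraries. HFpEF replicate 1 stood apart in 2 of the 9 and in 1.07% of all tested genes, against 1.23% to 2.07% for the other HFpEF libraries. The part of collection time, handling or RNA quality in these values was not tested.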

How the results depend on the processing

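Standard errors among the 9 genes ran from 0.15 to 0.94 on the log2 scale, and their part in the number of calls was not tested. Of the 9, 0 were called by DESeq2 (no p-value for Arntl), by limma-voom and in every other alternative except without Control replicate 4; over the leave-one-out fits 0 to 1 were called. Fitted directions of the 7 negative-limb genes stayed below 0 in all 16 alternatives. Arntl ran from -0.43 to 2.36 with 1 library left out and turned below 0 in 4 of them, with values of -0.43, -0.09, -0.09 and -0.06. Clock ran from -0.011 to 0.40, with -0.011 without HFpEF replicate 1. The limb difference between groups ran from 0.67 to 2.12 with 1 library left out, and members at or over percentile 95 of spread from 5 to 8.

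The 316 called genes became 1244 with DESeq2, 22 to 332 with 1 library left out (22, 89, 24 and 157 without Control replicates 1 to 4, and 186 and 157 without HFpEF replicates 2 and 3), 204 with the limb difference as a covariate and 197 without Control replicate 4 and HFpEF replicate 1; the causes were not tested. The replicate block left 6 genes, and 0 of the 9 members. Same-numbered libraries' deviations correlated at -0.02, -0.06, 0.07 and -0.16, and the libraries were treated as unpaired.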
